A study of Mus musculus with 4 samples.

Results

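Oxidative phosphorylation (OXPHOS) genes were taken by symbol from the autosomal protein-coding genes of mm10: Nduf followed by a letter (complex I), Sdha to Sdhd (complex II), Uqcr or Uqcc (complex III), Cox4 to Cox8 (complex IV) and Atp5 (complex V). They numbered 96 of 20665 autosomal coding genes, with 47, 4, 11, 17 and 17 genes in complexes I, II, III, IV and V. They lay on 18 of the 19 autosomes. Another 3 genes of these names lie on chromosome X, where no interaction was listed, and 19 pseudogenes were left out. The Nduf and Uqcc symbols also bring in 11 assembly factors, which build complexes I and III without being part of them.

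The study used H3K27ac HiChIP, which ligates chromatin fragments that are near each other in space and pulls down those with H3K27ac, a histone acetylation found at active enhancers and promoters. The samples were 2 YAP-M tumor libraries, from mouse brain with the genotype YAP-M fusion (YAP1 joined to MAMLD1), and 2 libraries of wild-type mouse neural stem cells kept in culture with EGF and basic FGF. All 4 used the H3K27ac antibody, and the labels do not give the promoter or cell type that drove the fusion. The titles of all 4 name H3K27ac ChIP-seq rather than HiChIP. The data used here are 1 deposited list of 99041 interactions between bins of 10 kb, 20 to 1000 kb apart, whose name is read as that of the YAP-M tumor. It holds positions alone, so the read depth is unknown, no replicate error can be given, no test was possible and the neural stem cells were not analysed here.

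The respiratory chain passes electrons from NADH (through complex I) and succinate (complex II) by way of ubiquinone, complex III and cytochrome c to oxygen at complex IV, and the proton gradient made on the way drives ATP synthesis at complex V. Except for complex II, each complex combines subunits of the mitochondrial genome with nuclear ones, so the nuclear genes below are only part of each machine. Their promoters are known for binding sites of NRF1 and of the ETS factor GABP, with YY1 as a further regulator of mitochondrial genes.

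Annotated promoters of the most connected gene of each complex with an entry in the RefSeq promoter table are shown first, because they are the sequences at the anchored gene starts. The promoter of Cox7c, a complex IV gene with no listed interaction and no other coding gene in its bins, is shown for contrast. Each runs from 250 bases before to 50 bases after the annotated start in GRCm38.p6 (mm10). Capitals mark matches, on either strand, to the motifs searched: the NRF1 motif, exact (as in the second run of capitals of Uqcrc1) or with 1 base left free (the one in which the runs of Uqcrc1 differ), CCGGAAG for ETS and GABP, AAGATGG for YY1, GGGCGG for SP1, GGAATG for TEAD (the DNA-binding partners of YAP) and TATAAA for the TATA box.
Ndufv3, complex I, chr17:31519865-31520164, plus strand: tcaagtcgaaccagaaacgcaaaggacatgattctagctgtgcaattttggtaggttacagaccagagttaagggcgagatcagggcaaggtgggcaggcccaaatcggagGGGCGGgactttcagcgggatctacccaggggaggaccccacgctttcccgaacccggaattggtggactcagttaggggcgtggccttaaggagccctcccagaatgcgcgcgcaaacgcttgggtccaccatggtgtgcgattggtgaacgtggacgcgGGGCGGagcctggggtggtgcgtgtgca
Sdhb, complex II, chr4:140961021-140961320, plus strand: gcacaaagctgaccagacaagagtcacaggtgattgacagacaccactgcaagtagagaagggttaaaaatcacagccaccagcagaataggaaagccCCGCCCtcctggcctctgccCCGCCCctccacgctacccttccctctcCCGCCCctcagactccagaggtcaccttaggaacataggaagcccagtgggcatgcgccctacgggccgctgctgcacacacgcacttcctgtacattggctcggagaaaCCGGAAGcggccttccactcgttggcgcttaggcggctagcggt
Uqcrc1, complex III, chr9:108936398-108936697, plus strand: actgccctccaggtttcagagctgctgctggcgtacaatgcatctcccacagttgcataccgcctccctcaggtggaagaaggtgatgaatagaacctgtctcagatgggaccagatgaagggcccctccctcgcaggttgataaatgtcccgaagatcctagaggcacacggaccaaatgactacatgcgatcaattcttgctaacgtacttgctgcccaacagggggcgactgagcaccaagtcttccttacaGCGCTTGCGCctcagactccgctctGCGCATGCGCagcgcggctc
Cox5a, complex IV, chr9:57520982-57521281, plus strand: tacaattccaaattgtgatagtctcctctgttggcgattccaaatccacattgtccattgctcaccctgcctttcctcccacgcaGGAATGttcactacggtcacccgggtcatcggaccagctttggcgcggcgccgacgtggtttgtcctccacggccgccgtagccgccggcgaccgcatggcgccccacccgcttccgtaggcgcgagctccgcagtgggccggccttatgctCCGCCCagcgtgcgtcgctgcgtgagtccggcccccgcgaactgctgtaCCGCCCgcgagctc
Atp5o, complex V, chr16:91931581-91931880, minus strand: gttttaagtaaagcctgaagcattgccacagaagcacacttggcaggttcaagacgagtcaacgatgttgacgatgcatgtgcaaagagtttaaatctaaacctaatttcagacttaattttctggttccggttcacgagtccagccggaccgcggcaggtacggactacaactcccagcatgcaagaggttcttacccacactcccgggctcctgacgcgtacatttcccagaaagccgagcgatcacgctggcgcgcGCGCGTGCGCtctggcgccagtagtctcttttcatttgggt
Cox7c, complex IV, no interaction, chr13:86046746-86047045, minus strand: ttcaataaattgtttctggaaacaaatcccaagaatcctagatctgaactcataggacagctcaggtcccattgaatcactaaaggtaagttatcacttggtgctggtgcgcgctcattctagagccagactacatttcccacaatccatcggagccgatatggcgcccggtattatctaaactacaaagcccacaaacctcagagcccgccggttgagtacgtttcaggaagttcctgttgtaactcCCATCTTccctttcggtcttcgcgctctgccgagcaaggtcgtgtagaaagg

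Uqcrc1 held 2 matches to the free-base NRF1 motif, 1 of them exact, both in the 50 bases after its start, and Atp5o held 1 free-base match, also after its start. Sdhb held 3 SP1 matches before its start and 1 ETS match after it. The Ndufv3 promoter held 2 SP1 matches and none of the other motifs, and Cox5a held 2 SP1 matches and 1 TEAD match. Cox7c held 1 YY1 match, which lay across its annotated start. A match says that the letters are there, not that the factor binds.

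An interaction was counted for a gene when an anchor bin came within 2.5 kb of either end of the annotated gene. By this count 79 of the 96 OXPHOS genes had at least 1 interaction (82.3%, exact 95% interval 73.2 to 89.3%), against 65.7% of all autosomal coding genes. The interval covers counting error only, and genes that share a bin are not independent. The OXPHOS genes had a median of 5 interactions (interquartile range 2 to 9.25), against a median of 2 (0 to 7) over all coding genes. Their counts stopped at 22, whereas 2.98% of all coding genes had more than 22 and the highest had 144. At least 10 interactions were listed for 24 OXPHOS genes (25.0%), against 17.1% of all coding genes. Atp5o, Ndufv3, Ndufb1, Ndufv2 and Sdhb had counts that 4.51% of coding genes or fewer reached. A share of 2.98% is few genes in a set of 96, so the lack of counts above 22 carries little weight. OXPHOS genes were thus more often connected than the average gene. How far this differs from other genes beyond chance was not tested.

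**Figure D1:**
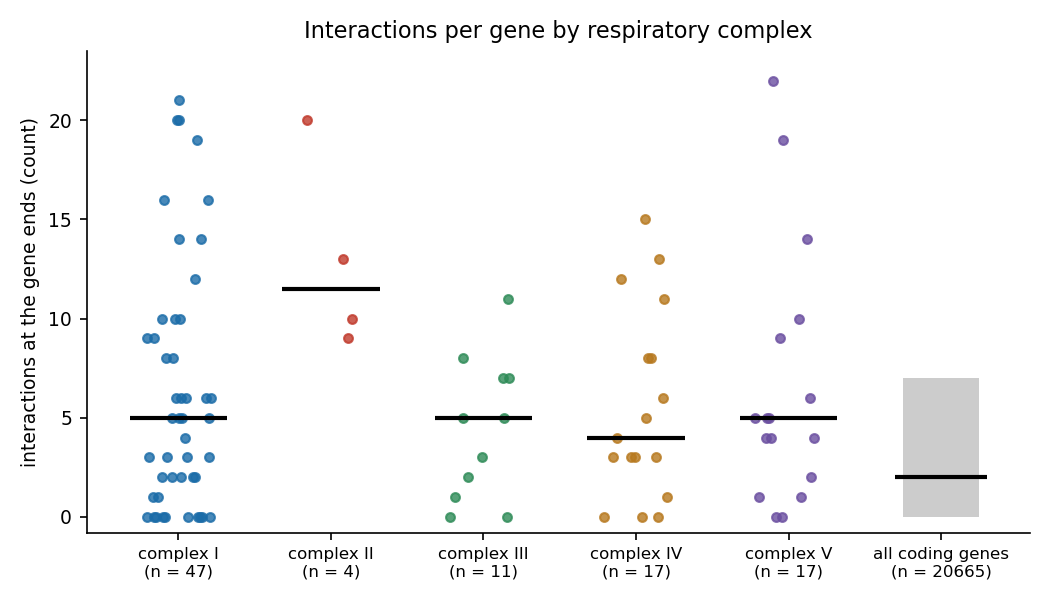
Interactions at the gene ends (count, vertical axis) for each gene of complexes I to V, 1 point per gene with a black line at the median, beside the median and interquartile range (grey box) of all 20665 coding genes. The 4 complex II genes lie between 9 and 20, and points at 0 are found in the other complexes.

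Other broadly used gene groups gave similar or higher values. Proteasome subunits had an interaction at 44 of 50 genes (88.0%, 75.7 to 95.5%) with a median of 5.5, and cytosolic ribosomal proteins at 79 of 85 (92.9%, 85.3 to 97.4%) with a median of 6. The exact intervals of these shares overlap that of the OXPHOS genes, and the intervals of complexes I to V overlap each other.

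**Figure D2:**
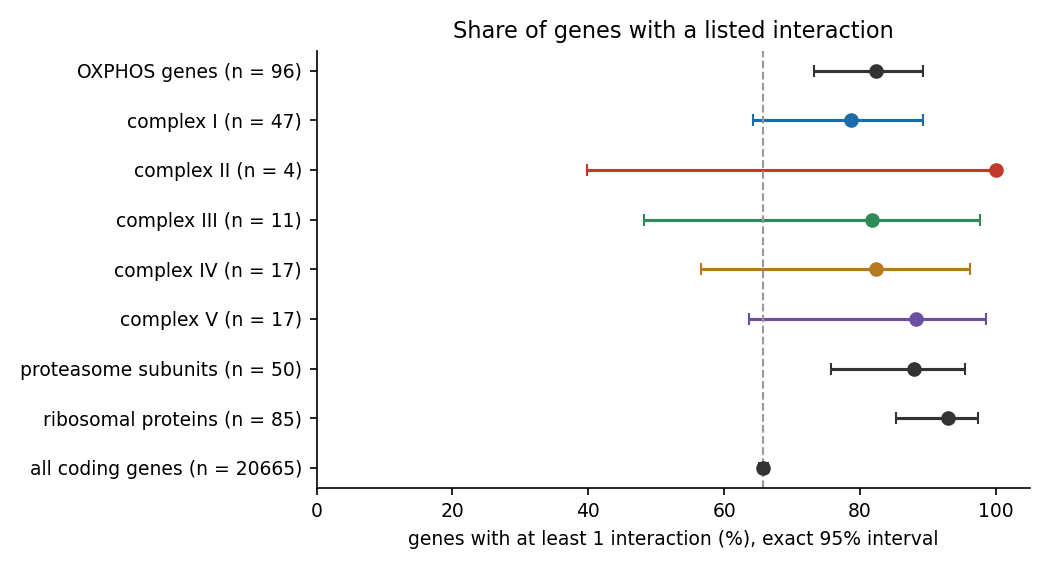
Share of genes with at least 1 listed interaction (horizontal axis, percent) with exact 95% intervals that cover counting error only, and the number of genes in brackets; the dashed line marks all coding genes. The share of all OXPHOS genes (82.3%) lies right of the line at 65.7%, while the interval of each of complexes I to V includes that line.

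Most OXPHOS genes are short and sit close to other genes. Their median span was 7.44 kb, against 17.5 kb over all coding genes, and 81 of the 96 (84.4%) shared an end bin with another coding gene, against 61.2% of all coding genes. The count of such a gene cannot be assigned to it rather than to its neighbour. Among genes that shared a bin, 70 of 81 OXPHOS genes had an interaction (86.4%, 77.0 to 93.0%), against 75.4% of all such genes. Only 15 OXPHOS genes were alone in their bins, and 9 of these had an interaction (60.0%, 32.3 to 83.7%), against 50.5% of all such genes. Their median was 2, against 1, and their highest count was 10, at Ndufaf6, an assembly factor of complex I.

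The share of connected OXPHOS genes was highest where genes were dense, which was not so for all coding genes. With 24 to 71 coding genes within 500 kb, 34 of 36 OXPHOS genes had an interaction (94.4%, 81.3 to 99.3%), against 63.2% of all coding genes of that class. With 11 to 23 neighbours the shares were 76.7% (23 of 30) against 66.6%, and with 0 to 10 neighbours 73.3% (22 of 30) against 67.2%. In the densest class the OXPHOS median was 7.5, against 2 for all coding genes. The OXPHOS genes without an interaction had a median of 11 coding neighbours, and those with one had 20.

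**Figure D3:**
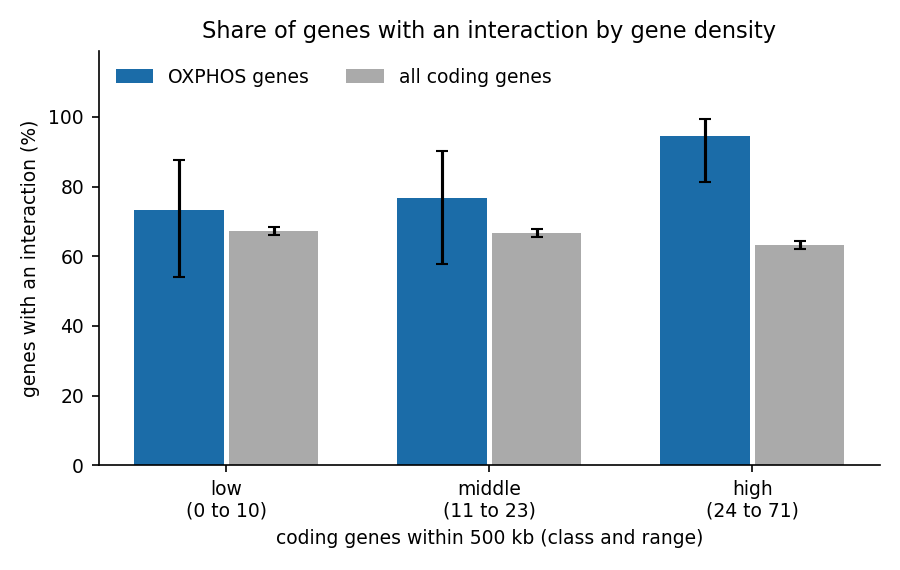
Share of genes with an interaction (vertical axis, percent, with exact 95% intervals) for OXPHOS genes (blue) and all coding genes (grey) in 3 classes of the number of coding genes within 500 kb. The bars are 94.4% and 63.2% in the densest class, and the blue intervals of the other classes include the grey bars.

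In complex I, which oxidises NADH, 37 of 47 genes were connected (78.7%, 64.3 to 89.3%), and the median was 5 interactions. Ndufv3, a small flavoprotein-arm subunit on chromosome 17 from 31520115 to 31531326, had the most with 21, and 9 of these joined it to bins with an end of U2af1, a splicing factor gene 110 to 150 kb away. Its first 2 bins, with 11 and 7 of the interactions, also held an end of Wdr4. Ndufv2, an iron-sulfur subunit of the same arm, had 20 interactions, all with bins at lower coordinates, and Ndufv1, which binds NADH, had 14. All 3 Ndufv genes were therefore connected. Counted by bin midpoint, that is, only where the midpoint of a bin lay within 2.5 kb of a gene end, Ndufv3 and Ndufv2 had 0 each.

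Ndufb1, a subunit of the membrane arm, had 20 interactions, of which 16 fell in the bin of its annotated start. That bin also held an end of Cpsf2, whose start lies 236 bases from that of Ndufb1 on the other strand. Its partner bins lay mostly at higher coordinates, 320 kb away or more, and held ends of Lgmn, Rin3, Golga5 and Itpk1. Ndufb9, also of the membrane arm, had 19 interactions in 9 merged contacts, in bins shared with Mtss1 and Tatdn1, and they reached 930 kb. Interactions were merged into 1 contact where both of their anchors were at most 1 bin apart. Ndufv3 and Ndufb1 had 5 merged contacts each and Ndufv2 had 6, so by merged contacts Ndufb9 rather than Ndufv3 ranked first in complex I.

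The Ndufs genes encode most of the iron-sulfur proteins of complex I and some accessory subunits. Interactions were listed for 5 of 8 Ndufs genes (62.5%, 24.5 to 91.5%) with a median of 2.5, close to all coding genes (65.7%, median 2). Ndufs3, which lies in the arm that passes electrons to ubiquinone, had 6, and the accessory subunit gene Ndufs4 had 3. Of the other groups, 12 of 14 Ndufa genes (Ndufab1 counted with them), 9 of 12 Ndufb genes and both Ndufc genes had an interaction. The assembly factors stood at 6 of 8, with a median of 3.5, against 31 of 39 and a median of 5 for the subunits. Ndufaf8 had the most of them with 16, in bins shared with Tepsin and Slc38a10.

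The 10 complex I genes without an interaction were Ndufa4, Ndufab1, Ndufaf1, Ndufaf3, Ndufb4b, Ndufb4c, Ndufb5, Ndufs1, Ndufs5 and Ndufs6. Ndufs1 carries iron-sulfur clusters of the electron path, and Ndufab1 is the mitochondrial acyl carrier protein. Ndufb4b and Ndufb4c are copies of Ndufb4 by name and span 0.485 kb or less, while Ndufb4 itself had 6 interactions. Ndufb5 and Ndufs6 share a bin with the mitochondrial ribosome genes Mrpl47 and Mrpl36.

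Complex II, succinate dehydrogenase, is the smallest complex and also an enzyme of the TCA cycle. All 4 genes were connected, and the median was 11.5 (exact interval of the share 39.8 to 100%). These genes were read over a median of 4 end bins, against 2 in each of the other complexes. Counts were not adjusted for this. Sdhb, the iron-sulfur subunit, had 20, with partners on both sides that included bins with an end of Padi3, Rcc2 or Necap2. Its bins at 140950001 and 140960001 on chromosome 4 took 9 and 10 of them, and the second held no end of another coding gene. Sdhd, a membrane anchor whose start lies 52 bases from that of Timm8b, had 13, all with bins at lower coordinates and no farther than 160 kb. Of these, 5 fell in the bin of its start, shared with Timm8b and Nkapd1, and 8 in a bin with no other coding gene end. Sdhc, the other anchor, had 10, of which 7 fell in a bin that also held an end of Cfap126. Sdha, the flavoprotein that binds succinate, had 9, all in the bins at its annotated start, which it shares with Ccdc127. Counted by bin midpoint, Sdhd kept 13 and Sdha, Sdhb and Sdhc had 0. Complex II genes reached at most 260 kb, and 0 of their 52 interactions exceeded 500 kb, against 9.24% of all interactions at a coding-gene end.

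Genes of different complexes could also share a partner. Ndufs7 of complex I and Atp5d of complex V, 103 kb apart on chromosome 10, were not joined to each other but shared 1 partner bin, which held ends of Cirbp and Midn. No 2 OXPHOS genes shared an end bin.

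In complex III, ubiquinol-cytochrome c reductase, 9 of 11 genes were connected (81.8%, 48.2 to 97.7%), and the median was 5. Uqcrc1, a core protein on chromosome 9 from 108936648 to 108949641, had 11, and the bin of its start, which held no other coding gene end, took 8 of them. Partner bins held ends of Celsr3, Nckipsd and Slc26a6, 80 to 130 kb away. Uqcr10 had 8 in 6 merged contacts, and the assembly factor Uqcc1 and the second core protein Uqcrc2 had 7 each, though those of Uqcc1 formed 1 merged contact. Uqcrfs1, the Rieske iron-sulfur protein, had 3 and was alone in its bins. Uqcrb and Uqcrq, small subunits near the ubiquinone site, had none.

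In complex IV, cytochrome c oxidase, 14 of 17 genes were connected (82.4%, 56.6 to 96.2%), and the median was 4. Cox5a and Cox5b, subunits without tissue isoforms in mammals, had 13 and 12. Of the 13 at Cox5a, 11 fell in the bin of its annotated start, with no end of another coding gene. That bin lies within the gene, not over its lowest or highest coordinate, and without the 2.5 kb window Cox5a had 2. Partners included bins with an end of Clk3, Neil1 or Commd4. Cox7a2l, which helps to join complexes III and IV, had 3, all with bins 230 to 240 kb away. The 3 genes without an interaction, Cox7b2, Cox7c and Cox8c, were alone in their bins. Cox7b2 and Cox8c are testis isoforms, whereas Cox7c is a general subunit and had 0 other coding genes within 500 kb.

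Several complex IV subunits have a broadly expressed gene and one known for a restricted tissue. Cox6a2, the heart and muscle isoform, had 15 interactions, against 4 at Cox6a1. The Cox6a2 bin also held an end of Itgad, and its partners, all at lower coordinates, included bins with ends of the integrin genes Itgam and Itgax. Cox8b, the muscle isoform, had 11 and the testis isoform Cox8c had 0, against 8 at Cox8a, and both Cox8b bins were shared with the proteasome gene Psmd13. Cox4i2, an isoform known from lung, had 8, against 5 at Cox4i1, and its bins were shared with Bcl2l1. Cox7a1, of heart and muscle, had 3, against 6 at Cox7a2, and the testis isoform Cox6b2 had 1, against 3 at Cox6b1. Ndufa4l2 had 2, against 0 at Ndufa4, which was named for complex I but is now placed in complex IV. By bin midpoint Cox8b had 0, against 5 at Cox8a, so the order of that pair turned round. Restricted isoforms therefore had the higher count in some pairs and the lower in others. Each isoform with an interaction, restricted or broad, shared a bin with another coding gene, as did 84.4% of all OXPHOS genes.

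In complex V, ATP synthase, 15 of 17 genes were connected (88.2%, 63.6 to 98.5%), and the median was 5. Atp5o, which encodes the stalk protein OSCP, had the highest count of all OXPHOS genes with 22, in 9 merged contacts, and 3.37% of all coding genes had at least as many. It lies on chromosome 16 from 91925223 to 91931630, and 21 of the 22 fell in the bin of its start, which held no other coding gene end. By bin midpoint Atp5o had 1. Its partners lay on both sides and reached 870 kb, with 5 interactions to bins with an end of Cryzl1 and 2 to bins with ends of Mrps6, of the mitochondrial ribosome, and Slc5a3. Atp5pb, subunit b of the stalk, had 19, of which 18 touched the bins at its start, shared with Wdr77, 235 bases away on the other strand. Partners of Atp5pb included an end of Ddx20 with 5 interactions. Atp5d, the delta subunit, had 14 in bins shared with Midn, Stk11 and Cbarp. Among the catalytic-head genes, Atp5b (beta) had 10, and Atp5a1 (alpha) and Atp5c1 (gamma) had 4 each. Atp5j2 and Atp5md, small membrane subunits, had none.

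The 3 genes of the c-ring, Atp5g1, Atp5g2 and Atp5g3, encode the same mature protein, and each was alone in its bins. Atp5g3 had 6 interactions, Atp5g1 had 2 and Atp5g2 had 1. By bin midpoint Atp5g3 moved from the highest count to the lowest, with 0, while Atp5g1 kept 2 and Atp5g2 kept 1. The 6 of Atp5g3 formed 2 merged contacts, 1 toward bins 330 to 350 kb lower with an end of Chrna1 and 1 toward bins 750 to 770 kb higher with ends of Evx2, Hoxd13, Hoxd12, Hoxd11 and Hoxd10. The single interaction of Atp5g2 spanned 40 kb to a bin with an end of Atf7.

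**Figure D4:**
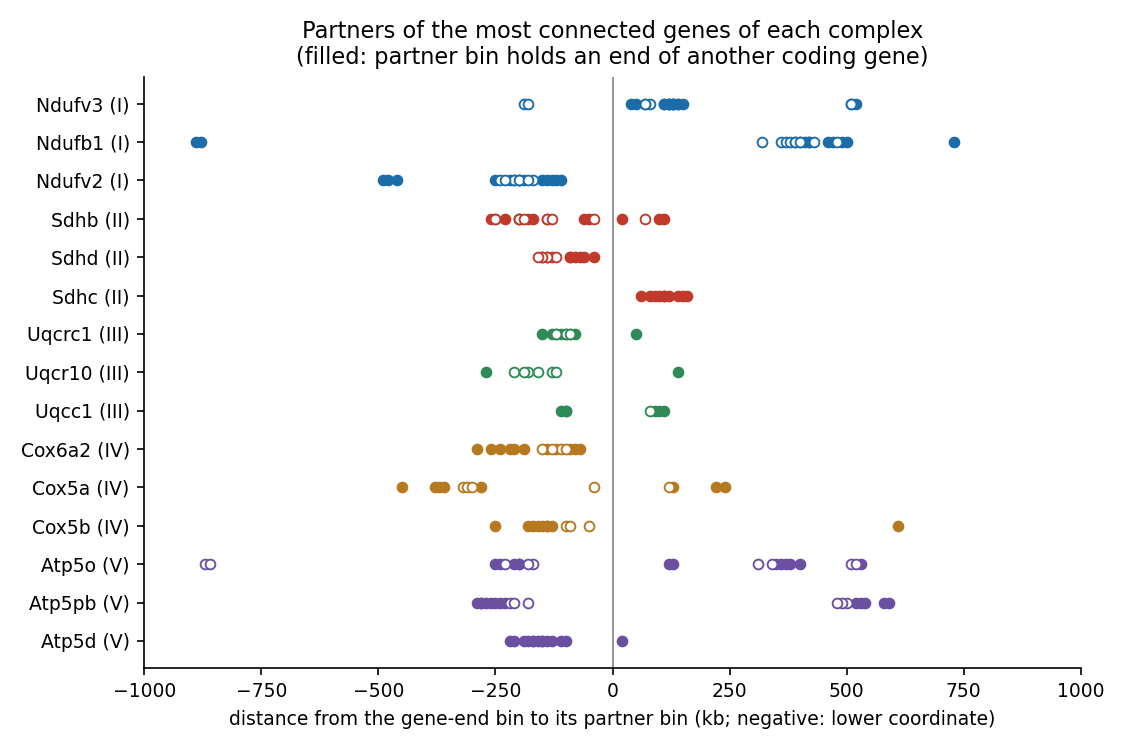
Distance in kb from the gene-end bin to the partner bin (horizontal axis, negative toward lower coordinates) for 3 genes with the most interactions in each complex (Uqcrc2, tied with Uqcc1, is left out), 1 circle per interaction, filled where the partner bin holds an end of another coding gene. Sdhd, Ndufv2 and Cox6a2 have circles on the lower side only and Sdhc on the higher side only, while Atp5o and Sdhb have both.

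The OXPHOS genes together touched 599 interactions (0.605% of the list), which merged into 253 contacts. Their median distance was 170 kb, as for all interactions at a coding-gene end. The share under 100 kb was 18.5%, against 24.1%. In 63.6% of them (381, exact interval 59.6 to 67.5%) both bins held an end of a coding gene. Over all interactions at a coding-gene end the share was 29.5%. These shares are not counted alike. An interaction with coding ends in both bins counts once in the full list but can enter a gene set from either bin. A small set of genes therefore tends to lie above 29.5%. How much of the difference this makes was not tested. The OXPHOS share was also higher in each class of gene density, with the same limit. It was 77.2% against 59.3% in the densest class, 57.7% against 40.0% in the middle class and 46.8% against 18.8% in the sparsest. Partner bins of 72 of the 79 connected genes held an end of another coding gene that had no end in the gene's own bins. Of 54 genes with at least 4 partner bins, 17 had partners on 1 side only and 37 on both. These counts of genes were not made over all coding genes, so whether they are usual was not tested.

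Where the start and the far end of a gene lay in different bins, interactions were more often at the start. This could be asked of 28 OXPHOS genes with a strand in the promoter table. The start bins had an interaction in 82.1% of them and the far-end bins in 60.7%, against 66.7% and 43.8% over 10288 coding genes. Interactions at the start bins numbered 134 and those at the far end 54, against 42786 and 18749 over the 10288 coding genes. The lean toward the start was thus general to coding genes. Ndufa12 was the 1 OXPHOS gene with interactions at the far end alone (9), in bins without an end of another coding gene.

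Many OXPHOS genes start next to a gene on the other strand. A start within 1 kb on the opposite strand, pointing away, was found for 22 of 78 OXPHOS genes with an annotated start (28.2%), against 8.77% of 16457 coding genes in the table. Of these 22, 19 had an interaction, as did 47 of the 56 others, and the median counts were 5.5 over the 22 and 5 over the 56. Over all coding genes 1276 of 1443 with such a neighbour and 9528 of 15014 without one had an interaction, and the medians were 5 and 2. Atp5j, subunit F6, starts 148 bases from Gabpa, which encodes the DNA-binding subunit of GABP, a known activator of OXPHOS genes. Of the 9 interactions of Atp5j, 8 fell in the bin that the pair shares, and 3 led to bins with an end of Mrpl39, of the mitochondrial ribosome. Ndufa7 and Rps28 (10 bases), Sdhd and Timm8b (52 bases), and Ndufs3 and Kbtbd4 (19 bases) are pairs of the same kind.

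Over the 78 genes with an annotated promoter, letters of the NRF1, ETS and YY1 motifs were more frequent in the 300 bases than over all coding genes. The free-base NRF1 motif was found in 20 (25.6%), against 7.39% of 16457 genes, and its exact form, which is included in it, in 7 (8.97%), against 1.49%. The ETS motif was found in 19 (24.4%), against 13.3%, and the YY1 motif in 13 (16.7%), against 7.26%. In only the 250 bases before the start the order turned round for YY1, with 1.28% of OXPHOS promoters against 4.86% of all, and it held for NRF1 (free base, 19.2% against 5.99%) and ETS (17.9% against 10.5%). The SP1 letters were found in 47.4%, against 50.3%, the TEAD letters in 8.97%, against 15.3%, and the TATA letters in 10.3%, against 15.0%. The median share of G and C was close, with 58.8% in OXPHOS promoters and 57.7% in all, but the spread was not. Its interquartile range was 53.8 to 62.3%, against 49.0 to 65.7%. The median number of CG pairs was 20 (interquartile range 15 to 25), against 15 (4 to 26). Whether the motif shares follow base composition was not tested. Among connected OXPHOS genes 18 of 66 held the NRF1 motif, and among those without an interaction 2 of 12 did (Ndufs5 and Ndufs6). The ETS motif was found in 17 of 66 and 2 of 12, and the YY1 motif in 10 of 66 and 3 of 12.

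**Figure D5:**
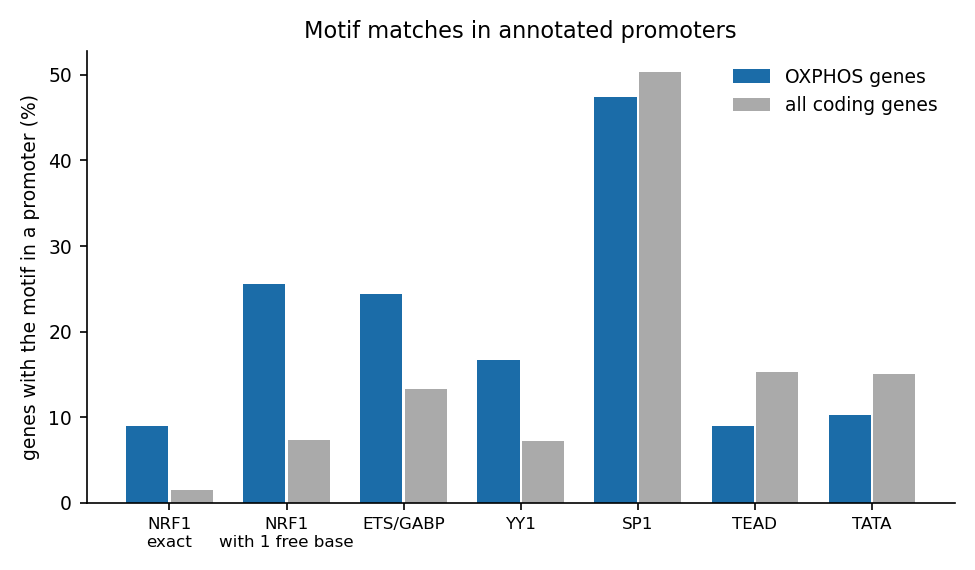
Share of genes with each motif in an annotated promoter of 300 bases (vertical axis, percent) for 78 OXPHOS genes (blue) and 16457 coding genes (grey). NRF1, ETS and YY1 letters are more frequent in the blue bars, and TEAD and TATA letters less frequent; for YY1 the order turns round in only the 250 bases before the start (1.28% against 4.86%).

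Of the genes that work with the respiratory chain, the electron carrier genes Cycs and Cyct and the complex III gene Cyc1 had 6, 4 and 4 interactions. Assembly factors outside the symbol rule had an interaction at 31 of 34 genes (91.2%, 76.3 to 98.1%) with a median of 5, led by Coa7 and Ttc19 with 33 each. Coa7 was alone in its bins. Enzymes of the TCA cycle had one at 7 of 12 (58.3%, 27.7 to 84.8%) with a median of 2.5, and Mdh2 had 11 and Cs, citrate synthase, had 7. Regulators of nuclear and mitochondrial OXPHOS transcription had one at 13 of 15 (86.7%, 59.5 to 98.3%) with a median of 3. Polg2, a subunit of the mitochondrial DNA polymerase, had 22 and the co-activator gene Ppargc1b had 14, whereas Ppargc1a had 1 and Tfam, the mitochondrial transcription factor, had 0. These lists stand beside 65.7% and a median of 2 for all coding genes. Single interactions linked genes of these lists to OXPHOS genes. Ndufb8 was joined by 1 interaction to a bin with ends of Twnk, the mitochondrial DNA helicase, Mrpl43 and Sema4g, 450 kb away. Ndufb4 was joined by 1 to a bin with ends of Timmdc1, a complex I assembly factor, and Poglut1, 870 kb away. The OXPHOS genes had 303 distinct partner coding genes, and whether such links are more frequent than for other genes was not tested.

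The list does not measure RNA, so the labelled tissue could be checked only by contacts at marker genes. All 7 neural stem and radial glia markers had an interaction, with a median of 22, as did 2 of 3 ependymal, 3 of 3 astrocyte, 3 of 3 microglia and 3 of 3 endothelial markers, with medians of 9, 1, 3 and 7. Over all coding genes the share was 65.7% and the median 2, so a share in a list of 3 genes says little about the tissue. The contacts of OXPHOS genes cannot be assigned to one of these cell types.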

How the data were processed

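The authors deposited 1 list of interactions as coordinates, per the file headers: chromosome, start and end of both anchor bins, with no count, score or library. Per the submitters' processing notes, BWA and mm10 were used. Caller, threshold and pooling of libraries: not given in the sources used here. Reading the list as that of YAP-M tumor rests on its name.

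Gene positions came from RefSeq for GRCm38.p6, the assembly of mm10. Interactions at gene ends were counted with Python 3.11.15 and pandas 2.3.3, and the counting was tested on simulated interactions. Strand and starts came from a RefSeq promoter table, which held 78 of the 96 genes. Shares have exact (Clopper-Pearson) 95% intervals from SciPy 1.17.1, for counting error only. The depth is unknown. Members and lists were chosen with earlier results of these data known. The rule named the top 3 genes of each complex (ties included), those without any interaction, isoform pairs, linked pairs, Sdha to Sdhd and the top 2 of each other list. Other named genes, the neighbouring starts and the gene-density classes were chosen after their values were seen. Protein identity of isoforms was not analysed here. Some results of single genes are not reported here. Alternatives were other windows (0 and 5 kb), the anchor midpoint, the start alone, the whole span, merged contacts, genes alone in their bins, other memberships and a shorter promoter.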

Additional observations from a re-analysis of the deposited data

How the results depend on the processing

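No paired analysis was possible because each interaction is given by position alone, and for that reason leaving out replicates and a stricter threshold were not run. The anchor midpoint, which reads fewer bins by construction, gave 60.4% of OXPHOS genes with a median of 1 (all coding genes 40.5% and 0), 53.2% and 1 in complex I, 25.0% and 0 in complex II, and medians of 3, 2 and 1 in complexes III, IV and V. Merged contacts had a median of 2 over all OXPHOS genes (all coding genes 1), and of 3, 3.5, 1, 2 and 2 in complexes I to V. For genes alone in their bins the values were 60.0% and 2 over all, 57.1% and 3 in complex I, 100% and 3 in complex III (1 gene), 25.0% and 0 in complex IV (4 genes) and 100% and 2 in complex V (3 genes). No complex II gene was alone. With the annotated start only, the median of complex I was 3 and the share in complex III 100%. The median of complex III was 3 with a window of 0 kb and 2.5 without assembly factors. In the 250 bases before the start the YY1 letters were found in 1.28% of OXPHOS promoters and 4.86% of all, against 16.7% and 7.26% in the full window, so the direction turned round. Single genes moved too: by bin midpoint Ndufv3, Ndufv2, Sdha, Sdhb, Sdhc, Cox6b2, Cox8b and Atp5g3 had 0 and Atp5o and Atp5pb 1 each, and with a window of 5 kb Cox6a2 had 29 and Cox4i2 16. The higher share in OXPHOS genes than in all coding genes kept its direction under each of these alternatives, from 60.0% against 50.5% to 83.3% against 68.0%. The first rank of complex II by median was lost with the anchor midpoint. Of the 17 genes without an interaction, 1 (Ndufb4b) gained one with a window of 5 kb and 0 over the whole span. Depth limits the absences: a gene without a listed interaction was not detected here rather than shown to have none.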
